A study of Mus musculus with 1470 samples.

Results

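A group of 8 chemokine and lipid receptors that steer leukocytes into, through and out of tissues, and that mark cells held in a tissue, were followed across the cell classes of the mouse liver: Cxcr6, Cxcr3, Ccr7, S1pr1, Ccr2, Cx3cr1, Cxcr4 and Ccr9. They were taken by gene symbol and are 8 of the 14915 gene rows of the expression table. All 8 encode receptors coupled to G proteins. CCR7 and S1PR1 serve recirculation, since CCR7 draws naive lymphocytes and dendritic cells into lymphoid tissue and S1PR1 lets lymphocytes leave tissue towards the sphingosine 1-phosphate of blood and lymph. CXCR6, the receptor for CXCL16, is a textbook feature of lymphocytes that stay in the liver sinusoids, and CXCR3 brings activated T cells to interferon-induced chemokines. CCR2 releases classical monocytes from bone marrow, CX3CR1 serves patrolling monocytes, CXCR4 holds cells at CXCL12 in marrow and CCR9 directs cells to CCL25 in the gut and thymus.

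The cells came from the livers of male wild-type C57BL/6J mice. The 3 ND mice ate normal chow and the 3 HFD mice ate a diet with 60% of its energy from fat for 9 weeks from an age of 5 weeks. Livers were digested by perfusion with collagenase II, hepatocytes were pelleted away, and live single cells of the non-parenchymal fraction were index sorted into multi-well plates and sequenced by Smart-seq2, which reads whole transcripts of single cells without strand or molecular identifiers. No gene was altered in either group, and the mouse was the replicate throughout. Each mouse had its own form of cell name, so plate and mouse cannot be told apart.

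The table held 1470 cells. RPKM values (reads scaled to transcript length and to the mapped reads of the cell) gave medians of 1595.5 to 3163 genes per cell in the 6 mice. The depth recovered from the low RPKM values gave medians of 88394 to 207375 reads per cell. Clustering, from which the 8 receptors and 59 related genes were left out, gave 53 NK-like, 21 plasmacytoid dendritic (pDC)-like, 43 monocyte-derived macrophage or dendritic (MoMac/DC)-like, 233 Kupffer (KC)-like, 476 endothelial-like, 35 hepatocyte-like and 30 erythrocyte-like cells. T-like cells made up 20.6% and B-like cells 16.7% of all cells. A mixed neutrophil cluster of 31 cells held 14 S100a8-high cells and 17 cells led by Ms4a6c, Gngt2 and S1pr5, with Ace among the leading genes (Ace-high), a split made after the values had been seen. HFD2 stood apart, with the lowest number of genes per cell and clusters largely its own. Of its T-like cells 92.2% lay in a cluster with 8.85% of those of the other mice, all 53 of its B-like cells lay in one with 6.25% of the others, and 75.7% of its endothelial-like cells lay in one with 6.97% of the others. Endothelial transcripts were present in every class, with a mean over 13 markers of 8.99 in endothelial-like cells and between 2.5 and 3.5 elsewhere. The mean over 11 Kupffer cell markers was 9.71 in KC-like cells and between 2.23 and 3.34 in the other classes. That over 10 hepatocyte markers was 9.36 in hepatocyte-like cells, 4.83 in KC-like cells and between 1.41 and 2.77 in the rest. The part of the Kupffer cell and hepatocyte transcripts in the comparisons with KC-like cells was not tested. For the endothelial ones, an alternative left out cells with 3 or more of the markers. These were 88.8% of KC-like and 55.8% of MoMac/DC-like cells, too many for it to serve as a test.

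A level below is the mean of log2(RPKM + 1) over the cells of a class in a mouse, averaged over mice, and a difference is between such means. One read was worth between 1.49 RPKM (Ccr9) and 4.53 RPKM (Cxcr3) in a cell of median depth. Cxcr6, Cxcr3, Ccr7 and S1pr1 reached 1 RPKM in many cells of classes that should lack them. In hepatocyte-like cells, which had a median of 1974 genes, the shares were 54.3% for Cxcr6, 45.7% for Cxcr3, 51.4% for Ccr7 and 51.4% for S1pr1, and the detected cells held medians of 2.03, 1.63, 2.03 and 2.06 reads. Shares at or near those, and levels near 2, were therefore read as background, and shares of cells at 100 RPKM are given for the separation between classes.

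Cxcr6 lies on chromosome 9 (chr9:123806477-123811754, plus strand; coordinates are RefSeq's on GRCm38), within the span of Fyco1 on the other strand. The Cxcr6 and Fyco1 exons share 0 bases, and Fyco1 levels were between 0.19 and 1.51 in all 10 classes. In the GENCODE annotation, Ccr9 exons share 1932 bases with a transcript on the other strand, 269 with a non-coding transcript on their own strand and 22 with Slc6a20a, and Cx3cr1 exons share 78 with an antisense transcript. Without strand, reads from those stretches cannot be told apart, so the values of Ccr9 and Cx3cr1 are uncertain to that extent. Cxcr3 lies on chromosome X (chrX:101731535-101734147, minus strand). The 2 genes had similar patterns across these classes, and their promoters, from the RefSeq promoter table, are printed for that reason. Only the bases before the first exon of GENCODE are shown, so that 248 of the 250 bases before the RefSeq start of Cxcr6 are printed, and for Cxcr3 only the stretch farther from its start. Capitals mark TCACAC, a core of the sequence bound by T-box factors, searched on both strands.
Cxcr6, chr9:123806227-123806474, plus strand: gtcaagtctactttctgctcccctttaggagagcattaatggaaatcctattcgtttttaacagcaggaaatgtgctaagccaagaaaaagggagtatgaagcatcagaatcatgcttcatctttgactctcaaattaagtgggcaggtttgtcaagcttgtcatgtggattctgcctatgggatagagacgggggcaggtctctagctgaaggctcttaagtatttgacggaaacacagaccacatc
Cxcr3, chrX:101734270-101734397, minus strand: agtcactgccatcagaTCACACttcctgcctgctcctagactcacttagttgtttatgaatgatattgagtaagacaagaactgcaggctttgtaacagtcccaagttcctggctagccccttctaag
The letters TCACAC occurred once in the 250 bases before the Cxcr3 start and were not found in those before the Cxcr6 start, and 12.3% of 32817 promoter windows of that length held them. CACCC, a core recognised by KLF factors, was in neither and in 52% of windows. Of the 8 genes, 6 had a promoter in the table. Ccr2 (chr9:124101918-124109140), Cx3cr1 (chr9:120048683-120068296) and Ccr9 (chr9:123767211-123783457) lie on the same chromosome as Cxcr6. Ccr7 (chr11:99144199-99155077), S1pr1 (chr3:115710433-115715055) and Cxcr4 (chr1:128588199-128592299) lie elsewhere.

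Cxcr6 was highest in T-like cells. Its level there was 8.22, 7.47 and 7.32 in ND1, ND2 and ND3 and 7.64, 5.20 and 6.60 in HFD1, HFD2 and HFD3, a mean of 7.07 ± 1.06 (SD, n = 6). NK-like cells followed with 3.06 ± 1.77 (n = 6), between 1.36 in HFD2 and 6.03 in ND2. In the remaining classes Cxcr6 was between 1.40 in pDC-like and 2.13 in erythrocyte-like cells, and no pair of neighbours in that order, from NK-like cells down, differed beyond its spread (exact sign-flip permutation tests over mice, lowest p = 0.25). At 100 RPKM or more, Cxcr6 was found in 63.4% of T-like cells, 11 of 53 NK-like cells (20.8%), 12 of 476 endothelial-like, 3 of 233 KC-like, 3 of 43 MoMac/DC-like and 2 B-like cells. T-like cells with Cxcr6 held a median of 210 reads of it.

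Cxcr3 had a similar order with one addition. T-like cells had levels of 7.43, 6.97 and 6.79 in the ND mice and 7.08, 5.50 and 6.64 in the HFD mice, a mean of 6.73 ± 0.66 (n = 6). The next class was pDC-like cells, at 3.42 ± 2.47 in the 4 mice with at least 3 such cells, and these 4 mice were far apart: 2.52 in ND1, 5.86 in HFD1, 0.37 in HFD2 and 4.94 in HFD3. NK-like cells had 2.61 ± 1.86 (n = 6), with ND2 at 6.20 and the other mice between 0.98 and 2.85. At 100 RPKM, Cxcr3 was found in 61.7% of T-like cells, 9 NK-like, 4 of 21 pDC-like, 7 KC-like, 6 endothelial-like and 0 B-like cells.

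Ccr7 was highest in B-like cells, at 7.67, 6.86 and 6.02 in the ND mice and 8.57, 4.80 and 8.21 in the HFD mice, a mean of 7.02 ± 1.43 (n = 6). T-like cells had 2.87 ± 0.73, which exceeded the 2.04 ± 0.83 of endothelial-like cells in 6 of 6 mice (difference 0.83 ± 0.42, exact sign-flip p = 0.0312, the smallest p that 6 mice allow). All other classes were between 1.26 and 1.73 and their neighbours in the order did not differ beyond the spread. At 100 RPKM, Ccr7 was found in 60% of B-like cells, 44 T-like cells (14.5%), 12 endothelial-like and 3 KC-like cells, and in no cell of the other 6 classes.

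S1pr1 was shared between lymphocytes and endothelium. B-like cells had levels of 6.13, 5.02 and 5.50 in the ND mice and 5.82, 3.58 and 6.75 in the HFD mice, a mean of 5.47 ± 1.09. Endothelial-like cells had 3.69, 3.70 and 4.01 in the ND mice and 4.32, 3.11 and 4.0 in the HFD mice, a mean of 3.8 ± 0.42, and S1PR1 is known to stabilise endothelial junctions. B-like cells exceeded endothelial-like cells by 1.66 ± 0.82 and endothelial-like exceeded T-like cells (2.72 ± 0.58) by 1.08 ± 0.68, each in 6 of 6 mice (exact sign-flip p = 0.0312). By shares of cells at 1 RPKM, B-like exceeded endothelial-like cells by 7.12 percentage points and did not pass (exact sign-flip p = 0.125). At 100 RPKM, S1pr1 was found in 52.2% of B-like, 24.6% of endothelial-like, 18.5% of T-like and 13.2% of NK-like cells, in 4 KC-like and in 0 MoMac/DC-like cells.

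Ccr2 and Cx3cr1 were highest in MoMac/DC-like cells. Ccr2 was 6.14, 5.88 and 5.85 there in the ND mice and 7.43, 6.71 and 3.06 in the HFD mice, a mean of 5.85 ± 1.49. This exceeded T-like cells in 5 of 6 mice and did not pass the exact test (difference 2.89 ± 2.03, exact sign-flip p = 0.0625). Ccr2 was next highest in T-like (2.96 ± 0.83), pDC-like (2.80 ± 1.51, n = 4) and NK-like cells (2.01 ± 1.40), 3 classes that did not differ from each other beyond the spread, and was 0.48 to 0.77 in the other 6 classes. NK-like cells exceeded endothelial-like cells by 1.24 ± 1.12 in 6 of 6 mice (exact sign-flip p = 0.0312). Of the 100 cells with Ccr2 at 100 RPKM, 64 were T-like, 24 MoMac/DC-like and 6 NK-like. Cx3cr1 was 3.13, 3.05 and 5.95 in MoMac/DC-like cells of the ND mice and 5.98, 4.89 and 4.79 in those of the HFD mice, a mean of 4.63 ± 1.30. MoMac/DC-like cells exceeded the mixed neutrophil cluster, which had 1.51 ± 1.17, in 6 of 6 mice (difference 3.12 ± 1.59, exact sign-flip p = 0.0312), and the other classes were at 0.20 to 0.82, with KC-like cells at 0.68 ± 0.36. By shares of cells at 1 RPKM, they exceeded that cluster by 36.9 percentage points and did not pass (exact sign-flip p = 0.0625). Only 30 cells reached 100 RPKM of Cx3cr1, of which 16 were MoMac/DC-like and 7 KC-like.

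Cxcr4 was at 3.11 ± 1.19 in the mixed neutrophil cluster and 2.83 ± 0.93 in B-like cells, which did not differ (difference 0.28 ± 1.45, exact sign-flip p = 0.62). B-like levels were 2.17, 2.27 and 3.49 in the ND mice and 3.39, 1.66 and 4.02 in the HFD mice. T-like cells had 0.40 ± 0.16. In the neutrophil cluster the S100a8-high cells reached 10 RPKM of Cxcr4 in 9 of 14 cells and the Ace-high cells in 7 of 17. Ccr9 had 1 high class: pDC-like cells, at 5.91, 6.79, 7.76 and 7.98 in ND1, HFD1, HFD2 and HFD3, a mean of 7.11 ± 0.95. Of the 21 pDC-like cells 17 (81%) reached 100 RPKM, as did 21 T-like cells (6.93%) and 1 endothelial-like cell. T-like cells had a Ccr9 level of 0.94 ± 0.28, above endothelial-like cells (0.34 ± 0.18) in 6 of 6 mice (exact sign-flip p = 0.0312). The single ND2 and ND3 cells of the pDC-like class, not in that mean, had 8.18 and 8.65.

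**Figure D1:**
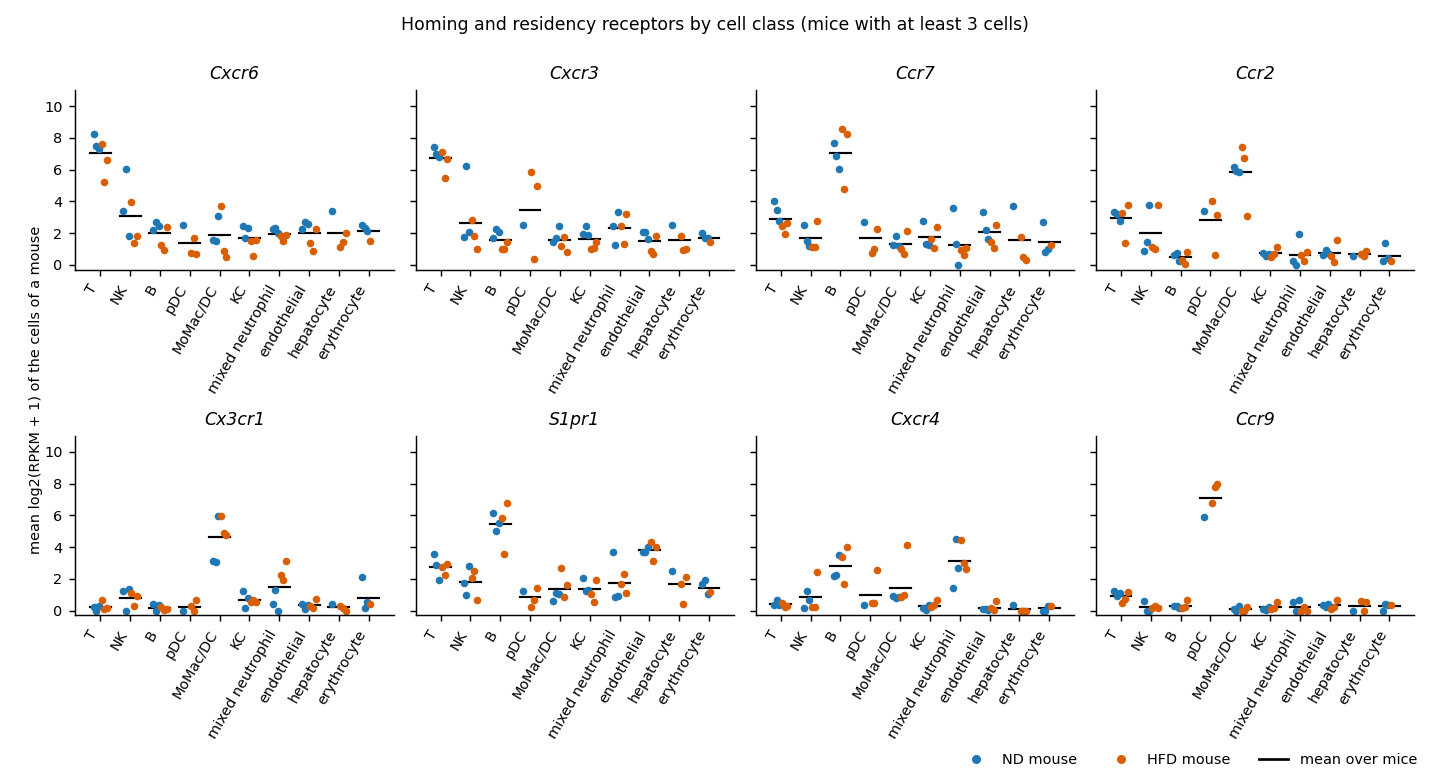
Levels of the 8 receptors in 10 cell classes; the y axis is the mean log2(RPKM + 1) of a mouse's cells, points are mice (blue ND, orange HFD, at least 3 cells each) and lines the means over mice. Cxcr6 and Cxcr3 were highest in T-like cells (7.07 and 6.73), Ccr7 and S1pr1 in B-like cells (7.02 and 5.47), Ccr2 and Cx3cr1 in MoMac/DC-like cells (5.85 and 4.63) and Ccr9 in pDC-like cells (7.11).

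T-like cells were compared with B-like and NK-like cells to ask which receptors part the lymphocyte classes. limma's moderated test was run on the mouse means with the mouse as a block, and adjusted p-values are Benjamini-Hochberg over all genes tested. Genes needed a level of 1 in at least 1 of the classes compared. Of the 8 receptors, 6 passed that filter for T-like against B-like cells and all 6 were called, where 42.3% of 4779 genes were called. Ccr2 passed through T-like cells alone (0.48 in B-like cells) and Cxcr4 through B-like cells alone (0.40 in T-like cells), so that they entered the test through the class in which they were high, and the count is no support for the group of receptors. The classes were drawn from the same cells, and although the receptors were kept out of the clustering, genes that vary with them were not. Cxcr6 was higher in T-like cells by 5.08 ± 0.28 (SE, adjusted p = 3.83e-10), Cxcr3 by 5.16 ± 0.24 (adjusted p = 4.45e-11) and Ccr2 by 2.48 ± 0.24 (adjusted p = 3.75e-07), each in 6 of 6 mice. Ccr7 was lower by a difference of -4.15 ± 0.36 (adjusted p = 1.01e-07), S1pr1 by one of -2.75 ± 0.29 (adjusted p = 8.84e-07) and Cxcr4 by one of -2.43 ± 0.29 (adjusted p = 3.96e-06), each in 6 of 6 mice. The median difference of all genes tested was 0.36. Without HFD2 the 6 differences were 5.24, 5.30, 2.71, -4.41, -3.03 and -2.63 in the same order and all were called.

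Against NK-like cells, 2 of 5 receptors tested were called, where 3.56% of 4855 genes were. The number of genes called fell to 0.47 of itself without ND1, 0.66 without ND3 and 0.51 without HFD1. Cxcr6 was higher in T-like cells by 4.01 ± 0.48 (adjusted p = 0.000309) and Cxcr3 by 4.12 ± 0.56 (adjusted p = 0.000837), in 6 of 6 mice. The ranges of the mice nevertheless overlapped for both, because NK-like cells of ND2 had 6.03 and 6.20, above the T-like level of HFD2 (5.20 and 5.50). Ccr7 (1.16 ± 0.38, adjusted p = 0.127), Ccr2 (0.95 ± 0.47, adjusted p = 0.311) and S1pr1 (0.92 ± 0.46, adjusted p = 0.313) were not called. Only 3 to 16 NK-like cells stood behind a mouse's mean. When no filter on low values was set, so that more genes were tested, neither Cxcr6 (adjusted p = 0.0645) nor Cxcr3 (adjusted p = 0.0978) was called, and with RPKM averaged before the logarithm Cxcr3 was not (adjusted p = 0.0843). Ccr7 was called, and higher in T-like cells, with that averaging (5.19, adjusted p = 0.00339) and without HFD3 (1.42, adjusted p = 0.0409).

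Within the T-like cells, clustering set 45 cells, called naive-like, apart from the others. Ccr7 and S1pr1, though kept out of the clustering, led the genes higher in the naive-like cells, ahead of Klf2, Tcf7 and Lef1. Tcf7 and Lef1 are transcription factors of naive T cells. The naive-like cells numbered 13, 14 and 4 in the ND mice and 7, 4 and 3 in the HFD mice. Ccr7 in them was 8.14, 8.66 and 7.31 in the ND mice and 6.36, 5.87 and 6.49 in the HFD mice, and between 1.62 and 2.77 in the other T-like cells. S1pr1 was 8.92, 7.43 and 7.35 in the ND mice and 6.60, 8.26 and 7.76 in the HFD mice, and 1.26 to 2.03 in the others. In neither gene did the mouse means of the 2 subsets overlap. Single cells did overlap in Ccr7, which reached 100 RPKM in 33.3% (HFD3) to 78.6% (ND2) of a mouse's naive-like cells. Among the other T-like cells the share was 0% in ND2 and HFD3 and up to 8.22% in HFD2, where it was 50% of the naive-like cells. Cxcr6 was the reverse, at 5.26, 2.92, 1.42, 2.29, 1.34 and 3.14 in naive-like cells of ND1 to ND3 and HFD1 to HFD3 and 5.42 to 9.10 in the others.

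The test called 5 of 6 receptors between naive-like and other T-like cells, where 2.61% of 5100 genes were called. The number of genes called fell to 0.50 of itself without ND1 or ND2 and 0.62 without HFD1. Ccr2, at 0.68 in naive-like cells, passed the filter through the other cells alone. S1pr1 was higher in naive-like cells by 5.93 ± 0.41 (adjusted p = 2.56e-05) and Ccr7 by 5.12 ± 0.45 (adjusted p = 0.000117). Cxcr6 differed by -5.15 ± 0.48 (adjusted p = 0.000136), Cxcr3 by -4.95 ± 0.65 (adjusted p = 0.00128) and Ccr2 by -2.75 ± 0.45 (adjusted p = 0.0057), so that all 3 were lower in naive-like cells, in 6 of 6 mice. Ccr9 did not differ (0.16 ± 0.43, adjusted p = 0.892). The subsets were cut from these same cells, so these p-values describe how alike the mice were in a split that related genes had made. With RPKM averaged before the logarithm, Cxcr6 (adjusted p = 0.0553) and Cxcr3 (adjusted p = 0.0735) were no longer called, and with no filter on low values Ccr2 (adjusted p = 0.0781) and Cxcr3 (adjusted p = 0.0902) were not.

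T-like cells were also parted by whether Cd4 or Cd8b1, the coreceptor genes of helper and cytotoxic T cells, reached 1 RPKM. There were 105 cells with Cd4, 50 with Cd8b1, 28 with both and 120 with neither, and HFD3 gave only 3 cells with Cd4. HFD2 gave 54 of the cells with neither. Median genes were 2754 in cells with Cd4 and 2194.5 in cells with neither. Cxcr6 was 8.58, 9.53 and 6.70 in Cd4 cells of the ND mice and 7.18, 5.22 and 7.10 in those of the HFD mice. In Cd8b1 cells it was 6.60, 7.03 and 5.54 and then 4.77, 4.41 and 6.76. The mean difference of 1.53 ± 0.46 (SE) had the same direction in 6 of 6 mice (exact sign-flip p = 0.0312) but was not called over all genes (adjusted p = 0.605). Ccr2 was likewise higher in Cd4 cells in 6 of 6 mice, at 3.30 ± 1.16 against 1.64 ± 1.24 (difference 1.66 ± 0.43 SE, exact sign-flip p = 0.0312, limma adjusted p = 0.452). Ccr7 was 2.71 ± 0.94 in Cd4 cells and 4.72 ± 2.24 in Cd8b1 cells (adjusted p = 0.641), and S1pr1 was 2.89 ± 1.23 and 4.46 ± 1.32 (adjusted p = 0.641). Cxcr3 was 7.02 ± 0.99 and 5.34 ± 1.13, a difference of 1.68 ± 0.60 in the same direction in 4 of 6 mice (SE, limma adjusted p = 0.641). None of 6 receptors tested was called, where 0.0585% of 5130 genes were. The unadjusted p was under 0.05 for 5 of the 6, all but Ccr9, and for 6.84% of all genes.

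Cells with neither coreceptor, in which gamma delta T cells and natural killer T cells could be found beside cells whose coreceptor went undetected, were compared with the Cd4 cells. Cxcr6 was 9.16, 6.57 and 8.56 in the ND mice and 9.93, 5.25 and 6.90 in the HFD mice, a difference from Cd4 cells of 0.34 ± 0.60 (SE, limma adjusted p = 0.915) that went from -2.96 in ND2 to 2.75 in HFD1. Cxcr3 differed by 0.02 ± 0.56 (adjusted p = 0.995), from -2.65 in ND3 to 2.47 in ND2, and Ccr2 by 0.06 ± 0.41 (adjusted p = 0.981). With the coreceptors gated at 10 RPKM, these uncalled differences were -0.23 for Cxcr3 and -0.007 for Ccr2. S1pr1 was lower than in Cd4 cells in 6 of 6 mice, with a difference of -1.10 ± 0.42 (SE, exact sign-flip p = 0.0312, limma adjusted p = 0.832), or of -0.70 without HFD3, whose Cd4 value rests on 3 cells. Of 6 receptors tested none was called, where 0.0201% of 4969 genes were, and 1 of 6 (S1pr1) had an unadjusted p under 0.05, as did 4.61% of all genes.

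**Figure D2:**
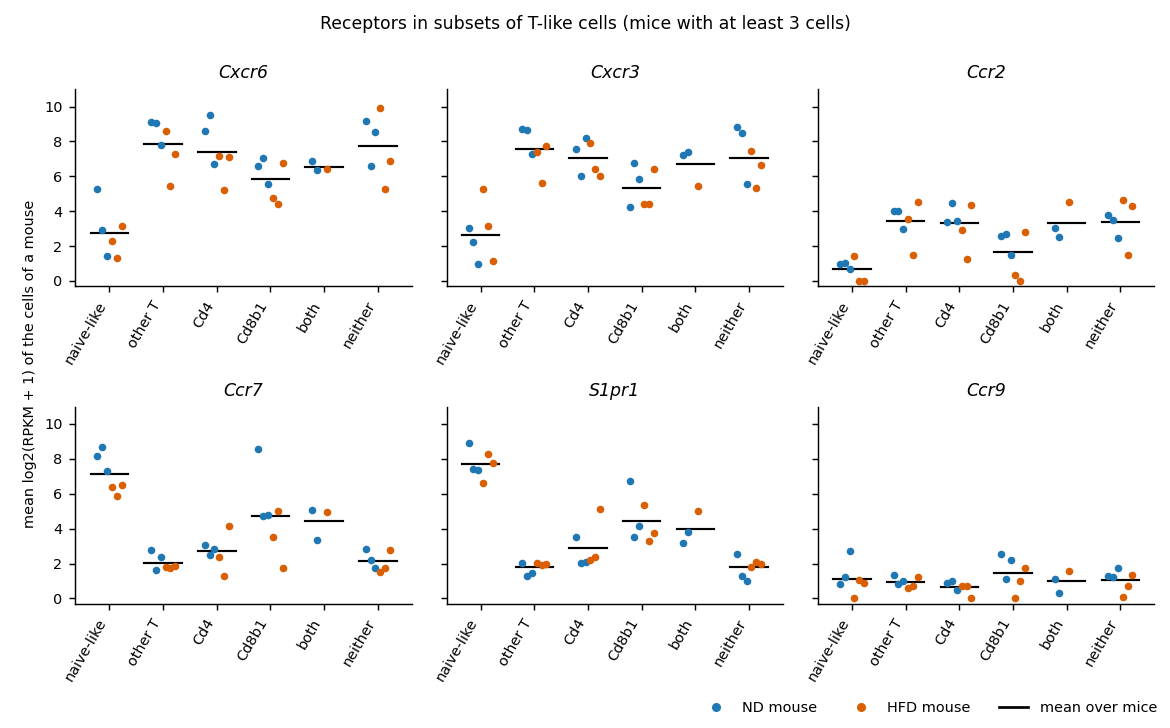
Levels of 6 receptors in subsets of T-like cells; the y axis is the mean log2(RPKM + 1) of a mouse's cells, points are mice (blue ND, orange HFD, at least 3 cells each) and lines the means over mice. Ccr7 and S1pr1 were at 7.14 and 7.72 in naive-like and 2.02 and 1.79 in other T-like cells, while Cxcr6 and Cxcr3 were at 2.73 and 2.62 against 7.88 and 7.57.

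The same division was seen in single T-like cells. With all genes counted at 100 RPKM, a threshold added after the data had been seen, 61.4% of cells had Cxcr6 without Ccr7, 38 cells (12.5%) had Ccr7 without Cxcr6, 6 (1.98%) had both and 73 (24.1%) had neither. The 6 cells with both were 4 of ND1, 1 of ND2 and 1 of ND3. Cxcr6 and S1pr1 were together in 14 cells, with 178 that had only Cxcr6 and 42 that had only S1pr1. Cxcr6 and Cxcr3 were together in 47.5% of cells, with 48 that had only Cxcr6 and 43 that had only Cxcr3. Median genes per mouse were 1738 to 3532 in cells with Cxcr6 and 1522.5 to 3208.5 in cells without.

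At that threshold Cxcr3 was found in a mean over mice of 75.3% of cells with Cxcr6 and 41.5% of cells without, a difference of 33.8 ± 11.3 percentage points (SD, n = 6). Ccr2 was found in 29.7% and 11.9%, a difference of 17.9 ± 13 points. Ccr7 was found in 2.4% and 38.4%, a difference of -36.0 ± 19.1 points, and S1pr1 in 7.03% and 40.8%, a difference of -33.8 ± 19.4 points. Each of these 4 had one direction in 6 of 6 mice (exact sign-flip p = 0.0312), and the same was found at 10 RPKM. At 1 RPKM, where a single read counts and only 5 mice had 3 cells on each side, none of 7 receptors passed (smallest p possible 0.0625): Ccr2 differed by 45.3 ± 26.2 points in 5 of 5 mice (exact p = 0.0625) and Ccr7 by -5.37 ± 28.1 points (exact p = 0.688).

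**Figure D3:**
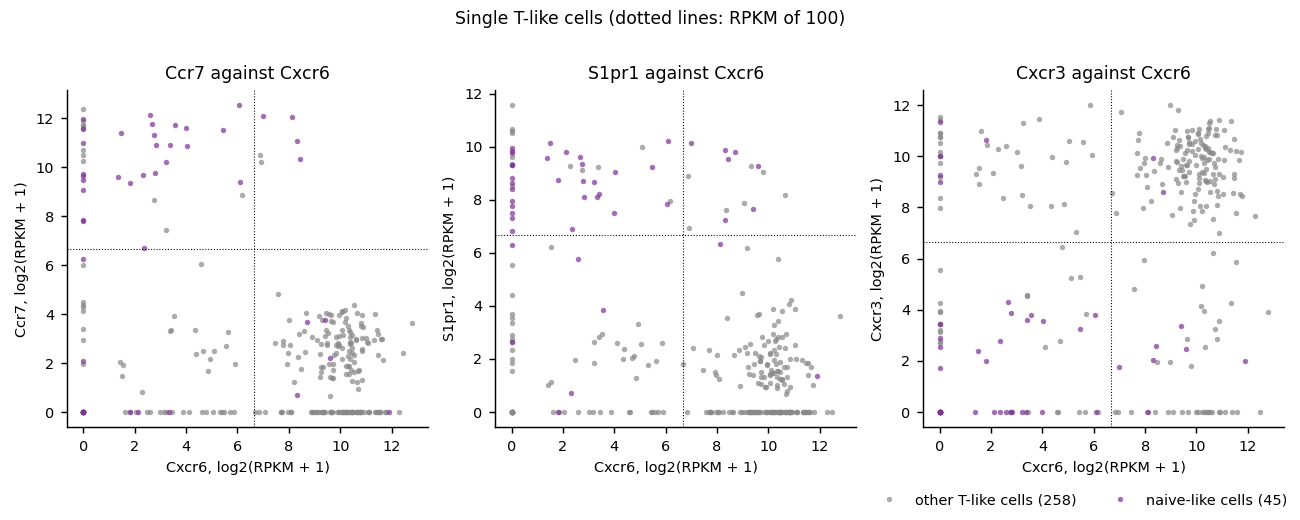
Single T-like cells, with log2(RPKM + 1) of Cxcr6 on the x axis and of Ccr7, S1pr1 or Cxcr3 on the y axis; purple points are the 45 naive-like cells, grey the others, and dotted lines mark 100 RPKM. Only 6 cells had both Cxcr6 and Ccr7 above the lines, against 47.5% of cells with both Cxcr6 and Cxcr3.

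MoMac/DC-like cells were compared with KC-like cells, the resident macrophages of the sinusoid, to ask which receptors part recruited from resident myeloid cells. Of 7 receptors tested, 3 were called, where 41.8% of 5793 genes were. The 3 were those that passed the filter through MoMac/DC-like cells alone, with 0.73 for Ccr2, 0.68 for Cx3cr1 and 0.31 for Cxcr4 in KC-like cells, so the count is a description. Ccr2 and Cx3cr1 were also called with no filter. Ccr2 was higher in MoMac/DC-like cells by 5.12 ± 0.50 (SE, adjusted p = 9.55e-09) and Cx3cr1 by 3.96 ± 0.47 (adjusted p = 3.02e-07), each in 6 of 6 mice with no overlap of the classes. The median difference over all genes tested was 0.90, and MoMac/DC-like cells had a median of 3407 genes against 2337. Cxcr4 differed by 1.13 ± 0.45 (adjusted p = 0.0459), near that median, and the value rested on HFD3: its difference was 3.45, against 0.55 to 0.77 in the other 5 mice, without HFD3 its level fell under the filter and it was not tested, and without any other single mouse it was not called. Nor was it called with RPKM averaged before the logarithm (adjusted p = 0.277), with no filter (0.194), without cells under 1500 genes (0.053) or with marker gates (0.0932). Cxcr6, Cxcr3, Ccr7 and S1pr1 differed by between -0.38 and 0.19 and were not called.

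Clustered on their own, the MoMac/DC-like cells gave 14 classical-like cells (Ly6c2, F13a1 and other markers of classical monocytes), 11 patrolling-like cells and 18 cells like conventional dendritic cells (cDC-like). Cut into 4 clusters, the cDC-like cells parted into 8 with cDC markers among their leading genes and 10 with 0 such markers there. Those 10 had a median of 4552 genes, so the name is less sure for them. Ccr2 and Cx3cr1 were together at 100 RPKM in 6 of 14 classical-like cells, 1 of 11 patrolling-like and 2 of 18 cDC-like cells, and Ccr2 was alone in 5, 1 and 9 of them. These subsets were compared with no minimum of cells per mouse, and in ND1, HFD2 and HFD3 the classical-like side was a single cell. Over the 4 mice with both, Ccr2 was 8.20 in classical-like and 3.82 in patrolling-like cells, a difference of 4.38 ± 3.63 (SD) that was positive in 3 of 4 mice (exact sign-flip p = 0.25, smallest possible 0.125). The exception was HFD2, with 6.62 in its 1 classical-like and 7.36 in its 2 patrolling-like cells. When the 17 Ace-high cells of the mixed neutrophil cluster were added to the patrolling-like cells, a choice made after the data had been seen, all 6 mice had both and Ccr2 was higher in classical-like cells in 6 of 6, by 6.03 ± 1.82 (SD, exact sign-flip p = 0.0312). In 4 of those 6 mice, HFD1 being the fourth with 1 Ace-high cell, one side of the difference was a single cell. Cx3cr1 was 7.16 in classical-like and 5.20 in patrolling-like cells (difference 1.96 ± 2.39, exact p = 0.25), and with the Ace-high cells the difference was 3.30 ± 2.68, positive in 5 of 6 mice (exact p = 0.0625). In HFD3, where Ccr2 was lowest among the mice, 4 of 6 MoMac/DC-like cells were patrolling-like, with a Ccr2 level of 2.17. Its 1 classical-like cell had 9.67 and its 1 cDC-like cell 0, and the part of the subsets in its level was not tested. Of the 9 MoMac/DC-like cells of HFD1, 4 exceeded 5000 genes. All 4 were among the 18 cDC-like cells, came from adjacent wells of one plate column, and were put among the endothelial-like cells when classes were set by marker gates instead. Whether each of these wells held 1 cell was not tested. Without the cells over 5000 genes the differences from KC-like cells were 5.0 for Ccr2 (limma adjusted p = 1.25e-06) and 3.79 for Cx3cr1 (adjusted p = 9.03e-06), both still called. The call of Cxcr4 was lost (1.10, adjusted p = 0.0572) and the uncalled difference of Cxcr6 went from 0.19 to -0.32.

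**Figure D4:**
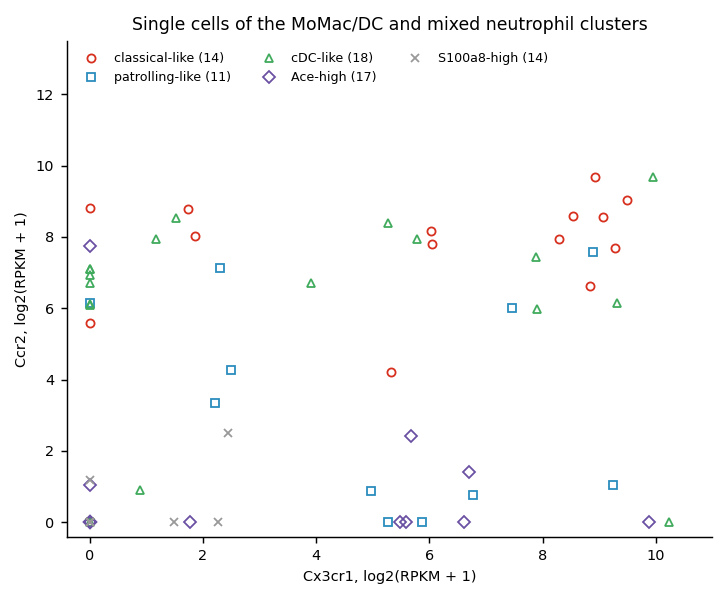
Single cells of the MoMac/DC-like and mixed neutrophil clusters, with log2(RPKM + 1) of Cx3cr1 on the x axis and of Ccr2 on the y axis; the marks give the subset, with its number of cells. Classical-like cells had Ccr2 at 100 RPKM in 11 of 14, and Ace-high cells in 1 of 17.

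Endothelial-like and KC-like cells, the other pair of sinusoidal classes, differed in S1pr1 alone among 4 receptors tested, where 55% of 4712 genes were called. The difference was 2.44 ± 0.22 (SE, adjusted p = 6.27e-07), in 6 of 6 mice without overlap, over a median of all genes of 0.29. Between pDC-like and B-like cells, tested in 4 mice with 4 to 6 pDC-like cells each, 5 of 7 receptors were called, where 15.1% of 5629 genes were. The number of genes called fell to 0.60 of itself without ND1. Ccr9 and Ccr2 passed the filter through pDC-like cells alone (0.35 and 0.46 in B-like cells), and S1pr1 and Cxcr4 through B-like cells alone (0.89 and 0.98 in pDC-like cells), so the count is a description. Ccr9 was higher in pDC-like cells by 6.76 ± 0.58 (adjusted p = 3.19e-06) and Ccr2 by 2.33 ± 0.63 (adjusted p = 0.0204). Ccr7 differed by -5.63 ± 0.67 (adjusted p = 4.74e-05), S1pr1 by -4.68 ± 0.61 (adjusted p = 0.000113) and Cxcr4 by -1.83 ± 0.57 (adjusted p = 0.0452), all lower in pDC-like cells. Cxcr3 was 3.42 ± 2.47 against 1.27 ± 0.34 (adjusted p = 0.0796), and without HFD2 it was called (difference 3.08, adjusted p = 0.0266). The call of Cxcr4 was lost without any 1 of the 4 mice, and also with limma's trend (adjusted p = 0.0613) and with marker gates (0.0936). That of Ccr2 was lost without ND1, HFD1 or HFD3 and with RPKM averaged before the logarithm (4.0, adjusted p = 0.0873). With no filter on low values, none of the 5 was called, with adjusted p from 0.06 for Ccr9 to 0.274 for Ccr2.

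Over 54 points, each a class in a mouse, the receptors formed 2 pairs of like pattern and 1 weaker pair. Pearson correlations were 0.81 for Cxcr6 with Cxcr3, 0.80 for Ccr7 with S1pr1 and 0.64 for Ccr2 with Cx3cr1, and the other 25 pairs were between -0.27 and 0.37. Points of one mouse share the mouse and its form of cell name, so these are descriptions. Among 8143 genes, those most like Cxcr6 were Cd3d (r = 0.93), Cd3e (r = 0.93), both subunits of the T cell receptor complex, and Cd226 (r = 0.91). Cxcr3 was most like Cd3d (r = 0.83), Art2b (r = 0.81) and Cd3e (r = 0.81). Ccr7 was most like Fcer2a (r = 0.92), Pou2af1 (r = 0.91) and Bcar3 (r = 0.91). S1pr1 was most like Cd55 (r = 0.82), Ccr7 (r = 0.80) and Ralgps2 (r = 0.80). Ccr2 was most like Sh3bp1 (r = 0.82), S100a4 (r = 0.82) and Sf3b6 (r = 0.80), and Cx3cr1 like Ly6i (r = 0.86), Naaa (r = 0.86) and Sirpb1a (r = 0.86). Ccr9 had the closest matches, Cd209c (r = 0.97), Siglech (r = 0.96) and Matn2 (r = 0.96), and Cxcr4 the least close, Dok3 (r = 0.73), Gpcpd1 (r = 0.71) and Btg1 (r = 0.70).

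Other genes of trafficking were taken from a list of 59: further chemokine receptors, sphingosine 1-phosphate genes, ligands, regulators of egress and residency, and adhesion molecules. Between T-like and B-like cells 26 were tested, 12 were higher and 6 lower in T-like cells, with a median difference of 0.52 against 0.36 over all genes, of which 42.3% were called. Itgal and Itgb2, the chains of LFA-1, differed by 4.16 and 4.61 and Selplg, the selectin ligand, by 4.73. Klf2, the transcription factor that drives S1pr1, differed by -3.89 and Cxcr5, the follicle-homing receptor, by -4.61. Between naive-like and other T-like cells 26 were tested, with 2 higher and 5 lower in naive-like cells, where 2.61% of all genes were called. Klf2 was 7.77 against 2.73 (adjusted p = 0.000136). Tbx21, which encodes the T-box factor T-bet, was 1.88 against 6.15 (adjusted p = 0.000251), and Cd44, the memory marker, 1.70 against 4.18 (adjusted p = 0.00392).

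Between T-like and NK-like cells, 28 of the list were tested and 2 were called, where 3.56% of all genes were, both lower in T-like cells: S1pr5, the egress receptor of NK cells, at 0.33 against 4.20 (adjusted p = 0.000665), and Itgb1 at 3.71 against 5.50 (adjusted p = 0.0138). Between MoMac/DC-like and KC-like cells, 12 of 28 were higher and 1 was lower, and of all genes 41.8% were called, most of them higher (2178 of 2422). The 1 lower gene was Vcam1, at 0.50 in MoMac/DC-like and 3.08 in KC-like cells (adjusted p = 6.43e-05). Selplg (3.61), Itgb7 (3.76) and Rgs2 (3.15) differed most clearly among the 12. Between endothelial-like and KC-like cells, 11 of 27 were higher and 10 lower, where 55% of all genes were called, Itga1 at 2.93 above and Itgal at -3.23 below. Between pDC-like and B-like cells, 7 of 23 were higher and 4 lower, where 15.1% of all genes were called, with Cxcr5 at 0.79 against 5.94. No gene of the list was called between the coreceptor subsets of T-like cells or between the diets.

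The diets were compared in the 6 populations that held at least 5 cells in each mouse, with 3 mice against 3, where an exact permutation test cannot go below p = 0.1. No receptor was called in T-like (5 tested), B-like (5), KC-like (4), endothelial-like (4), T-like Cd8b1 (6) or T-like cells with neither coreceptor (6), where 0%, 0%, 0.0306%, 0%, 0% and 0% of all genes were called. The unadjusted limma p was under 0.05 in 2 of these 30 tests, and for all genes that share was between 2.04% and 4.54% in the 6 populations. The differences were between -2.58 and 0.38 and 25 of 30 were below 0, and the median of all genes was itself below 0 in every population, between -0.31 and -0.14.

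Cxcr6 in T-like cells was 7.67 ± 0.48 in ND and 6.48 ± 1.22 in HFD mice (SD, n = 3 each), a difference of -1.19 ± 0.60 (SE, limma adjusted p = 0.997), or -0.55 without HFD2. Cxcr3 was 7.06 ± 0.33 and 6.41 ± 0.82 (adjusted p = 0.997), a difference of -0.66, or -0.20 without HFD2. Ccr7 in T-like cells was 3.99, 3.44 and 2.75 in ND and 2.48, 1.95 and 2.64 in HFD mice, without overlap (difference -1.04 ± 0.54 SE, exact permutation p = 0.1, limma adjusted p = 0.997). In T-like cells 7.78% of genes had every HFD mouse below every ND mouse. The same lack of overlap was found for Cxcr3 in B-like cells (1.14 ± 0.25 in HFD against 2.0 ± 0.30 in ND, where it held for 9.78% of genes). In KC-like cells it was found for Cxcr6 (1.21 ± 0.55 against 2.15 ± 0.37) and Cxcr3 (1.17 ± 0.21 against 2.10 ± 0.32), where it held for 5.33% of genes. No receptor had it in endothelial-like, T-like Cd8b1 or T-like cells with neither coreceptor, where it held for 4.39%, 7.4% and 7.9% of genes. Cxcr6 and Cxcr3 in B-like, KC-like and endothelial-like cells were at the background level set out above. With RPKM averaged before the logarithm, the difference of Cxcr3 was 0.34 in KC-like and 0.09 in T-like cells and that of Ccr7 1.09 in endothelial-like cells, so these uncalled directions turned. T-like cells made up 18.5%, 27% and 24.3% of the cells of the ND mice and 15.9%, 24.5% and 12.1% of those of the HFD mice, and the part of free T cell RNA in these low values was not tested.

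In B-like cells Ccr7 was 6.85 ± 0.83 in ND and 7.19 ± 2.08 in HFD mice (limma adjusted p = 1.0), and the HFD mice were 8.57, 4.80 and 8.21. Without HFD2 the difference was 1.54 (adjusted p = 1.0), and without ND3, HFD1 or HFD3 it was -0.08, -0.35 or -0.17. S1pr1 in endothelial-like cells differed by 0.01 ± 0.45 (SE, adjusted p = 1.0). The difference farthest from 0 was that of Ccr7 in T-like Cd8b1 cells, 6.01 ± 2.21 in ND and 3.43 ± 1.65 in HFD mice (adjusted p = 0.991), with 5 to 20 cells per mouse. NK-like cells and T-like cells with Cd4 were not tested because HFD3 held 3 of each. Cxcr6 in the Cd4 cells was 8.27 ± 1.44 in ND and 6.50 ± 1.11 in HFD mice, and in NK-like cells 3.75 ± 2.13 and 2.37 ± 1.37. In simulated data of this design for T-like cells, a shift of 4 on the log2 scale was called in 91.1% of shifted genes, a shift of 2 in 36.8% and a shift of 1 in 4.08%.

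**Figure D5:**
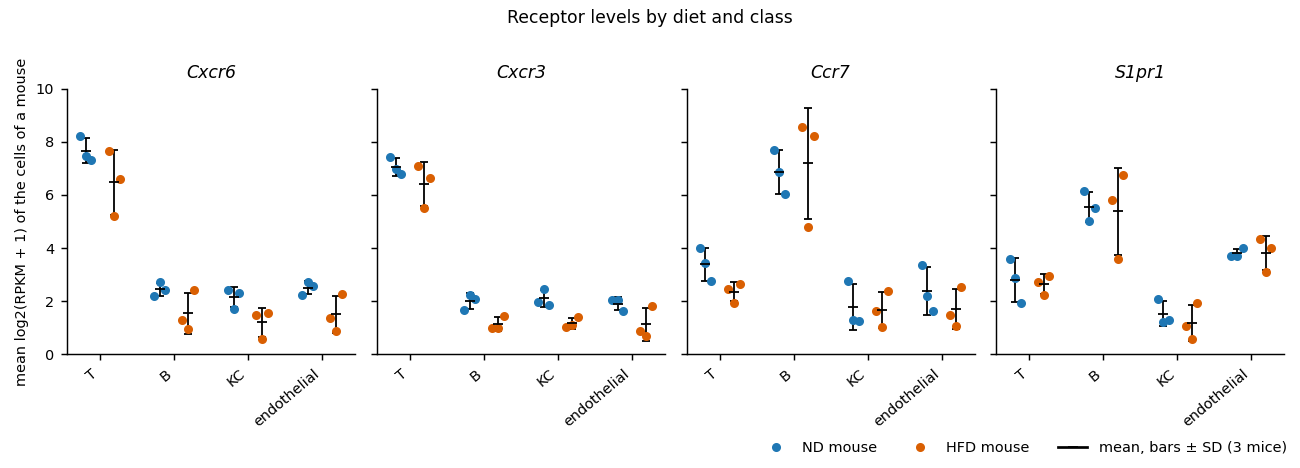
Levels of Cxcr6, Cxcr3, Ccr7 and S1pr1 by diet in T-like, B-like, KC-like and endothelial-like cells; the y axis is the mean log2(RPKM + 1) of a mouse's cells, points are mice and bars are means ± SD over 3 mice. The diets overlapped except for Ccr7 in T-like cells, Cxcr3 in B-like cells and Cxcr6 and Cxcr3 in KC-like cells, none of which was called.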

How the data were processed

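Single cells of the livers of 3 ND and 3 HFD mice were profiled by Smart-seq2. The authors aligned reads to mm10 with STAR and deposited RPKM values per RefSeq gene and cell, after removing doublets with Scrublet and mouse cells with few genes. No counts were used here. The table had 0 columns without a sample. Cells were clustered on 1000 variable genes (20 principal components, scikit-learn 1.9.0), without the 8 receptors and the 59 related genes. Clusters were named from fixed marker lists, by a scoring rule that was set after the files had been seen. Levels were means of log2(RPKM + 1) per mouse and class, with at least 3 cells (5 for diet, and no minimum between monocyte subsets). Between classes, a gene was tested where its mean level reached 1 in a compared class. Between diets, its mean over all 6 mice had to reach 1. Tests were limma 3.58.1 (R 4.3.3) with the mouse as a block for classes, Benjamini-Hochberg adjustment over all genes tested and a threshold of 0.05, and exact sign-flip or permutation tests over mice, all two-sided. Depth was recovered from RPKM steps: a median of 90.75% of low values lay within 0.1 of a whole read. The limma step was tested on simulated data. Named genes were the 3 most like each receptor by Pearson correlation, and up to 3 related genes called in each direction. A gene that this rule names is not reported here. The alternatives covered the pseudocount, scaling, filters, averaging, marker gates and single mice left out. Further alternatives, chosen after seeing the data, were cells over 5000 genes left out, cells with 3 or more endothelial markers left out, the Ace-high cells added, and co-detection at 100 RPKM. Leaving out cells by endothelial markers took 80.5% of T-like, 88.7% of NK-like, 91.0% of B-like and 88.8% of KC-like cells. Few cells of these classes remained, and no conclusion is drawn from it. The receptors and the gene lists were chosen with earlier results of these data known. Reads carried no molecular identifiers, and p-values measure the spread between mice, each with cell names of its own form.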

Additional observations from a re-analysis of the deposited data

Results flagged for a closer look

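Of 47 differences between classes examined mouse by mouse, 4 had 1 mouse standing apart from the rest by Dixon's criterion, which chance meets in about 1 in 20 groups. For Ccr2 between T-like and B-like cells, HFD2 had a difference of 1.32, and the nearest other mouse 2.47. For Ccr2 between MoMac/DC-like and KC-like cells, HFD3 had 1.94, and the nearest other mouse 5.18. For Cxcr4 between the same classes, HFD3 had 3.45, and the nearest other mouse 0.77. Of the 6 MoMac/DC-like cells of HFD3, 4 were patrolling-like, with levels of 2.17 for Ccr2 and 4.30 for Cxcr4. Its 1 classical-like cell had 9.67 and 4.19, and its 1 cDC-like cell 0 and 3.48. Patrolling-like cells of ND1, ND2 and HFD2 had 3.44, 2.31 and 7.36 for Ccr2 and 0, 1.26 and 0 for Cxcr4. The part of the subsets in these values was not tested. For S1pr1 between T-like cells with neither coreceptor and those with Cd4, HFD3 had -3.14, and the nearest other mouse -1.09, with 3 Cd4 cells behind the value of HFD3.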

How the results depend on the processing

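No called value changed its direction. Of uncalled diet differences, 6 turned from below to above 0 with RPKM averaged before the logarithm: Cxcr3 (0.09) and Ccr2 (0.16) in T-like, Cxcr3 (0.34) and Ccr7 (0.49) in KC-like, and Ccr7 in endothelial-like cells (1.09) and in T-like cells with neither coreceptor (0.25). With no filter on low values, the receptors called fell to 0 between T-like and NK-like cells, 3 between naive-like and other T-like cells and 0 between pDC-like and B-like cells. The genes called among all tested fell with them, to 0.31, 0.42 and 0.019 of their number. With RPKM averaged before the logarithm, 3 were called between naive-like and other T-like cells. Without 1 mouse in turn, the receptors called ranged from 6 to 7 (T-like against B-like), 2 to 3 (NK-like), 5 to 5 (naive-like), 2 to 2 (MoMac/DC-like), 1 to 1 (endothelial-like), 3 to 5 (pDC-like) and 0 to 0 (coreceptor subsets and every diet fit). By shares of cells at 1 RPKM, in percentage points, Ccr2 differed by 30.4 between MoMac/DC-like and T-like cells (exact p = 0.0312), Cx3cr1 by 36.9 between MoMac/DC-like cells and the mixed neutrophil cluster (exact p = 0.0625) and S1pr1 by 7.12 between B-like and endothelial-like cells (exact p = 0.125).

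The co-detection with Cxcr6 depended on the threshold. At 10 RPKM the differences in percentage points were 23 for Cxcr3, -29.4 for Ccr7, 32.2 for Ccr2, -39.2 for S1pr1 and 6.14 for Ccr9. At 100 RPKM they were 33.8, -36.0, 17.9, -33.8 and 6.32. At 1 RPKM, leaving out 1 mouse gave 15.3 to 37.6 for Cxcr3, -15.6 to 3.10 for Ccr7 (the last without ND2), 37 to 53.5 for Ccr2, -10.3 to -2.13 for Cx3cr1, -23.3 to -9.19 for S1pr1, -7.48 to 5.58 for Cxcr4 (the last without HFD1) and -13.7 to -2.57 for Ccr9. Between classical-like and patrolling-like cells, leaving out 1 mouse gave 3.35 to 6.09 for Ccr2 and 1.30 to 3.09 for Cx3cr1, and adding the Ace-high cells gave 6.03 for Ccr2 and 3.30 for Cx3cr1.

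With the replicate number as a block, 0 receptors were called in each of the 6 diet fits. Same-numbered mice correlated by -0.23 to 0.20 in their deviations from the diet means, and no population had every pair over 0.1, so the numbers were not taken to pair the mice. With RPKM averaged first, the genes called among all tested were 0.49 of their number between T-like and B-like, 1.62 times it between naive-like and other, 0.26 of it between MoMac/DC-like and KC-like and 0.42 of it between pDC-like and B-like cells. With classes from marker gates, 65 genes were called between T-like and NK-like and 1390 between MoMac/DC-like and KC-like cells, against 173 and 2422. Leaving out 1 mouse moved the genes called by diet in endothelial-like cells from 0 to 49 (without HFD3). In that fit every receptor tested had the same SE (0.51), so the spread of each gene did not enter, unlike in the fit of all mice. Depth limits the low levels, where 1 read is worth several RPKM, and the intervals of 3 against 3 mice limit the diet comparison.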
